A study of Mus musculus with 6 samples.

Results

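Of the 55487 gene rows in each deposited table, 35 carry the symbol of an endothelial gene on a list covering junction and adhesion proteins, the angiopoietin and Tie system, the apelin pair, receptors of the TGF-beta family, transcription factors, and signalling, transport and secreted proteins of vessel cells. Members were found by their exact symbol after the gene identifier. All 35 passed the filter on low counts, with at least 28 counts of every member in every library (the lowest was Sox17). The samples are mammary tumours of MMTV-PyMT mice, which carry the polyoma virus middle T antigen under the mouse mammary tumour virus promoter, active in mammary epithelium, so the vessels are host tissue. The 3 agonist libraries came from mice given the LXR agonist DMHCA by mouth in Medigel cups, continuously from an age of 6 weeks, and the 3 vehicle libraries (Ctl) from mice whose labels give vehicle by the same route and from the same age. The transgene is shared by both groups. Genetic background and age at collection were not stated in the labels used here. Sample titles carry 1 code for the agonist group (C816PyMT) and another for the vehicle group (C884PyMT), whose meaning they do not give. Whether each library stands for its own mouse is not stated in the labels. The p-values therefore set the group difference only against the variation between these libraries, and part of that variation may be technical. Treatment cannot be told apart from whatever the title codes stand for.

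Endothelial cells line blood and lymphatic vessels. VE-cadherin (Cdh5) and PECAM-1 hold their junctions together, angiopoietins acting on the receptor Tie2 (Tek) tune vessel stability, and the ETS factor Erg with the SOX factors Sox7, Sox17 and Sox18 maintain endothelial identity. Tumour vessels are known for leakiness, uneven pericyte cover and high turnover. LXR are nuclear receptors for oxysterols that control cholesterol export and lipid synthesis. The comparison of agonist and vehicle tumours addresses the effect of LXR activation on tumour progression.

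Since members include factors of the ETS and SOX families, promoters were searched for an ETS motif (CNGGAAG, with N for any base) and a SOX motif (ACAAT) on both strands, in the 250 bases before each RefSeq start site. RefSeq windows (GRCm38.p6) matched 14 of the 35 members, with 20 start sites. The ETS motif was present in 12 of these 20 windows (60.0%), covering 10 genes, and in 26.6% of all 32851 windows of the same length. The SOX motif was present in 6 (30%), against 27.7% of all windows. In no member window did matches of both motifs overlap, and a match is only a run of letters, not a shown binding site. The stretches below run 5′ to 3′ on the strand of the gene and stop before the first base of any exon annotated by GENCODE. Capitals mark both motifs. The selection rule named Cdh5, Angpt2 and the receptors Tek, Robo4 and Tie1, and no window was available for Cdh5 and Angpt2. The Tie1 window held 2 ETS matches, 91 and 81 bases before its start site. Its stretch before the first annotated exon is only 38 bases and holds neither match, so it is not shown. Emcn, Clec14a and Apln were added after their matches were seen, to show an ETS match with a SOX match (Emcn), a single ETS match in the stretch shown (Clec14a) and a pair of them (Apln).
Tek (chr4:94739039-94739288, plus strand): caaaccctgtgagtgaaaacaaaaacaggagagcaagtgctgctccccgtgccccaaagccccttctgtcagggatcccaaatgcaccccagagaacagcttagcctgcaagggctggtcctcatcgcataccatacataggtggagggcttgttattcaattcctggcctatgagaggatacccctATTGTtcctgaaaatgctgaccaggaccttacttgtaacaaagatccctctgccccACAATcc
Robo4 (chr9:37401722-37401896, plus strand): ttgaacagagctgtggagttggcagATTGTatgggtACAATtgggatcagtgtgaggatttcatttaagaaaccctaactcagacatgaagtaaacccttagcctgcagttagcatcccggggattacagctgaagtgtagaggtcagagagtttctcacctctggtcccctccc
Emcn (chr3:137340828-137341066, plus strand): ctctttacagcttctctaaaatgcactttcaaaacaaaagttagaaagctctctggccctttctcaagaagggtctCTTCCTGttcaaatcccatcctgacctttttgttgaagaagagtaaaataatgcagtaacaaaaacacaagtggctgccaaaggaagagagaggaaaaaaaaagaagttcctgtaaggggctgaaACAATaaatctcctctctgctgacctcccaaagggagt
Clec14a (chr12:58269291-58269508, minus strand): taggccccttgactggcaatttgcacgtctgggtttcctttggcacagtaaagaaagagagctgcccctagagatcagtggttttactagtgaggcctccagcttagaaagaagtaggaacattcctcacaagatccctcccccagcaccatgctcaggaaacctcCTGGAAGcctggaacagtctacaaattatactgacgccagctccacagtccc
Apln (chrX:48034854-48035103, minus strand): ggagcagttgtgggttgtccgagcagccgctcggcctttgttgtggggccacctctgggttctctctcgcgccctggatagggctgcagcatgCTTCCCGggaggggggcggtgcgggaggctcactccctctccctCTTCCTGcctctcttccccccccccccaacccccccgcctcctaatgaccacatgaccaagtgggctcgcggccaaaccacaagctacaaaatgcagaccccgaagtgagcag
Tek and Robo4 each held 2 SOX matches and no ETS match in the stretch shown. Past the end of these stretches the Robo4 window held an ETS match 50 bases before its start site, and that of Clec14a a SOX match 22 bases before its own. These 5 genes differed in how they varied across libraries: Tek had the widest spread of all members, 7.31-fold between its highest and lowest library, and Robo4 the narrowest, 1.49-fold.

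The libraries summed to between 36577451 and 42595799 expected counts. No pair of libraries of a group was alike within sampling noise: chi-square per degree of freedom over genes was 80.3 or more. Vehicle replicates 2 and 3 were the least alike pair of a group, with a Pearson correlation of 0.9405 over log2 CPM of the tested genes. Levels below are CPM, that is, counts scaled to the TMM-adjusted library total. Levels compared between genes are in TPM, which also divides by transcript length.

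Endothelial transcripts were scarce in these tumour pieces but present in every library. By mean TPM over the 6 libraries the most abundant members were Cav1 (17.6), which encodes the caveolar coat protein caveolin-1, Cd34 (14.9), a surface sialomucin, Egfl7 (14.0), a secreted vessel protein, and Acvrl1 (12.2), the receptor ALK1. Fibroblasts and fat cells are also known to express Cav1, and stromal progenitors Cd34, so these levels need not be endothelial alone. The defining junction genes were lower, with Pecam1 at 4.61 and Cdh5 at 3.03 mean TPM, and the receptor genes Tek (1.17) and Tie1 (1.13) lower still. At the bottom were Nos3 (0.505), the endothelial nitric oxide synthase, and Prox1 (0.590), the lymphatic factor. For Vwf, Sox17, Angpt2, Robo4 and Icam2 the effective length that RSEM assigned differed by 1.52-fold to 2.19-fold between libraries, so their TPM depend on how reads were shared among isoforms. Comparisons of a gene between libraries therefore use CPM. The summed level of the 35 members was 183, 175 and 138 TPM in the agonist libraries and 127, 198 and 98.0 TPM in the vehicle libraries. In bulk RNA, fewer cells of a type and less RNA per cell cannot be told apart.

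None of the 35 members passed an adjusted p of 0.05 between agonist and vehicle by edgeR, with a background of 0 of 17396 genes (0%), and the smallest adjusted p of a member was 0.99. DESeq2 and limma-voom likewise called 0 members. Over all genes limma-voom called 0 and DESeq2 4 (Arrb1, Igkc, Gm26964 and Pcdha8, named after their values were seen), of which none is a member. At an unadjusted p under 0.05 there was 1 member, Acvrl1, lower with agonist, where 3.09% of all genes tested reached that level, 0.719% higher and 2.37% lower with agonist (125 and 413 genes, or 182 and 331 with upper-quartile scaling). In CPM, every agonist library lay beyond every vehicle library for that same member alone. Of all genes, 7.24% had groups apart, 3.02% with agonist above and 4.22% with agonist below. A count of 1 in 35 is near or below both of these shares. Without vehicle replicate 2 the number of members at an unadjusted p under 0.05 was 10, where 2442 of 17963 genes reached that level, and the smallest adjusted p of a member was 0.283 by edgeR. It was 0 without agonist replicate 1 or 3, with upper-quartile scaling, with no filter, with either covariate and by DESeq2. The log2 fold change was positive for 29 of the 35 members, against 49.3% of all genes tested, with a median of 0.20 for the members and -0.0049 for all genes. Since the members vary together, these are not 29 separate observations. Without vehicle replicate 3 the count was 19 of 35 with a median of 0.020, and without vehicle replicate 2 it was 34 of 35 with a median of 0.73. Without agonist replicate 1 it was 24 of 35 and 0.10, and without vehicle replicate 1 it was 24 of 35 and 0.12. Without agonist replicate 3 the count was 29 with a median of 0.32.

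**Figure D1:**
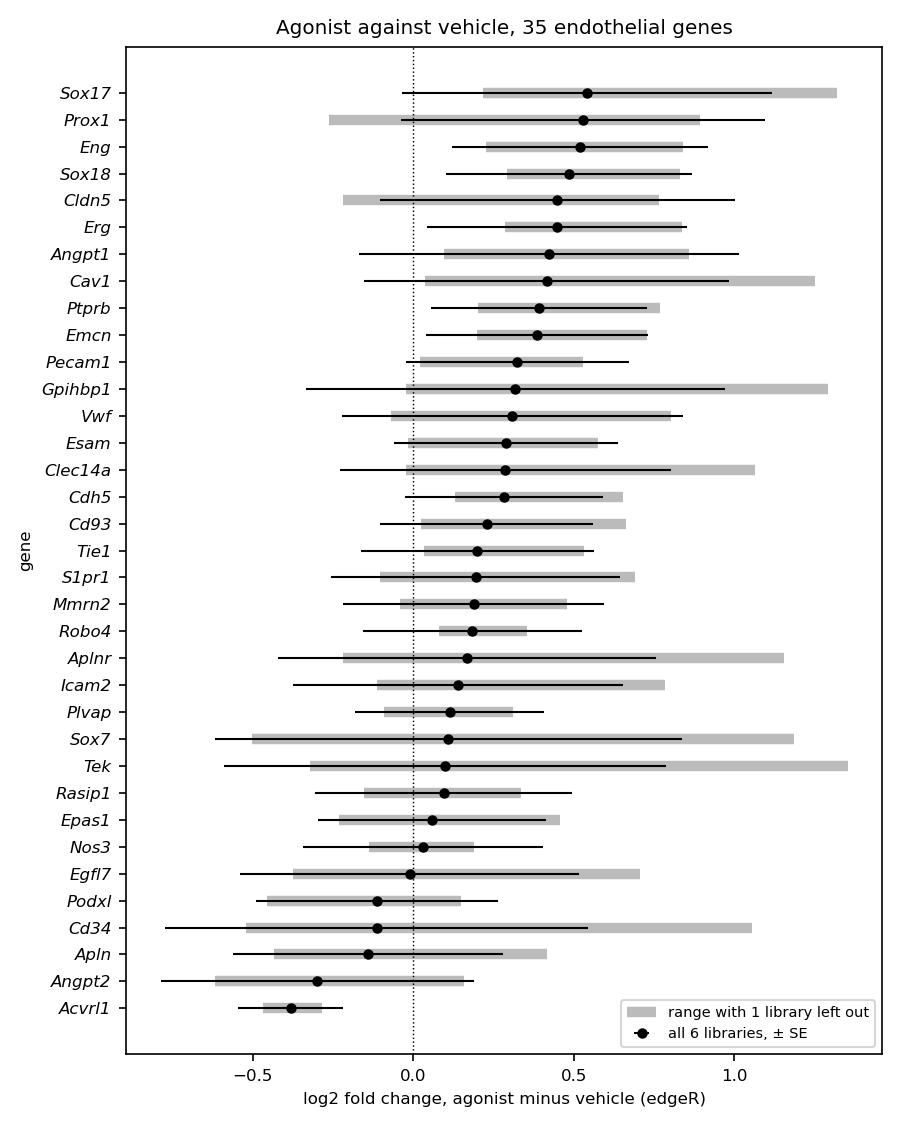
Log2 fold change of agonist minus vehicle (x axis, edgeR) for each of the 35 genes (y axis). Points are the fit on all 6 libraries with bars of 1 SE, and grey bars span the values with 1 library left out in turn. Acvrl1 sits lowest at -0.38 with a grey bar that stays below zero, while the grey bars of Tek, Cd34 and Sox7 reach from below zero to above 1.

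The members varied together across the vehicle libraries. Vehicle replicate 2 was above vehicle replicate 3 for 33 of 35 members (94.3%), the exceptions being Epas1 and Podxl, whereas this order held for 50.2% of all genes tested. Vehicle replicate 2 was the highest of the 6 libraries for 18 members and vehicle replicate 3 the lowest for 24, while those libraries held the extreme for 16.9% and 20.7% of all genes. For 20 members all agonist libraries lay within the vehicle range, against 29.5% of all genes. For 18 members vehicle replicates 1 and 3 were both below every agonist library (51.4%, against 17.4% of all genes). The SD of log2 CPM was larger in vehicle than in agonist for 29 of 35 members (median 0.684 against 0.325), and for 63.9% of all genes tested.

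**Figure D2:**
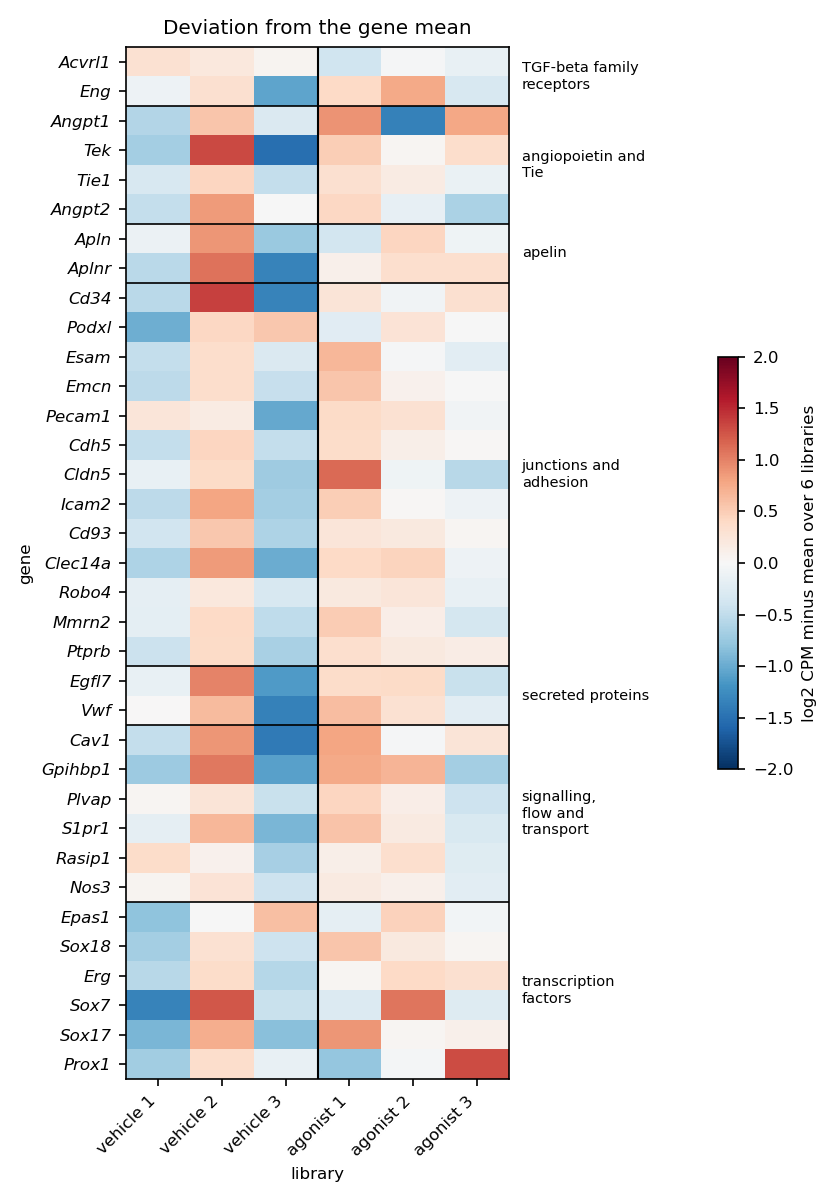
Each cell is the log2 CPM (prior count 2) of a gene in a library minus its mean over the 6 libraries (colour scale), with genes grouped by role (rows) and vehicle libraries left of agonist libraries (columns). Vehicle replicate 2 is mostly red and vehicle replicate 3 mostly blue, while Epas1 and Podxl are highest in vehicle replicate 3. Among the agonist libraries Prox1 stands out in replicate 3 and Angpt1 is lowest in replicate 2.

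Among the junction and adhesion genes, Pecam1 (chromosome 11, 106654217 to 106750628, minus strand; GENCODE M21 on GRCm38) had 15.4, 14.5 and 11.2 CPM in agonist replicates 1 to 3 and 13.9, 13.2 and 5.77 in vehicle replicates 1 to 3. Its groups overlapped, and vehicle replicate 3 stood apart below all others. The log2 fold change was 0.32 ± 0.35 (SE; 95% interval -0.48 to 1.13), and 0.020 without vehicle replicate 3. Cdh5 (chromosome 8, 104101625 to 104144511, plus strand) had 13.5, 11.3 and 10.7 CPM with agonist and 7.52, 14.1 and 7.48 with vehicle. Here vehicle replicates 1 and 3 lay below all agonist libraries and vehicle replicate 2 above them. Its log2 fold change was 0.28 ± 0.31 (-0.43 to 0.996), and 0.65 without vehicle replicate 2. Emcn, which encodes the anti-adhesive mucin endomucin, had 9.27, 6.74 and 6.28 CPM against 4.38, 8.12 and 4.58, and Ptprb, a receptor phosphatase that acts on Tie2 and VE-cadherin, had 8.37, 7.64 and 7.38 against 4.92, 8.71 and 4.2. In both, vehicle replicates 1 and 3 lay below all agonist libraries, and vehicle replicate 2 was the highest library for Ptprb but below agonist replicate 1 for Emcn. They had log2 fold changes of 0.38 ± 0.35 and 0.39 ± 0.34. Leaving out vehicle replicate 2 gave 0.73 for Emcn and 0.77 for Ptprb, while Emcn was at 0.20 when agonist replicate 1 was left out and Ptprb at 0.20 when vehicle replicate 3 was.

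The other members of this group were spread from tight to wide. Cldn5, the claudin of endothelial tight junctions, had 3.90 CPM in agonist replicate 1 but 1.64 and 1.17 in agonist replicates 2 and 3, with 1.57, 2.29 and 1.04 with vehicle. A single agonist library was thus high, and the log2 fold change of 0.45 ± 0.55 became -0.22 without it. Esam, an adhesion molecule of endothelial junctions, had 12.7, 7.88 and 6.90 CPM against 5.74, 10.2 and 6.51 (0.29 ± 0.35), and -0.015 without agonist replicate 1. Icam2, a ligand of leukocyte integrins, had 1.98, 1.42 and 1.29 CPM against 0.957, 2.45 and 0.845 (0.14 ± 0.52), with -0.11, -0.077 and -0.059 without vehicle replicate 3, vehicle replicate 1 and agonist replicate 1. The angiogenesis-linked surface proteins Clec14a and Cd93 and their matrix ligand Mmrn2 had log2 fold changes of 0.29 ± 0.52, 0.23 ± 0.33 and 0.19 ± 0.41. Clec14a ran from 2.06 CPM in vehicle replicate 3 to 7.53 in vehicle replicate 2, and without the former its log2 fold change was -0.021. Mmrn2 was at -0.040 without agonist replicate 1. Robo4, a guidance receptor that stabilises vessels, was the steadiest member, with 3.17, 3.29 and 2.48 CPM against 2.44, 3.22 and 2.21 (0.18 ± 0.34). Cd34 was among the least steady, with 32.7, 25.8 and 33.9 CPM with agonist inside a vehicle range set by 70.5 in replicate 2 and 10.7 in replicate 3, with 18.8 in replicate 1. Its log2 fold change was -0.11 ± 0.66, and 1.06 without vehicle replicate 2. Podxl, a sialomucin of endothelial and also of epithelial cells, went against the group pattern, with 14.8, 39.0 and 42.2 CPM in the vehicle replicates and 24.8, 35.1 and 28.9 with agonist (-0.11 ± 0.38; 0.15 and 0.057 without vehicle replicate 3 or 2, and 0.0065 when agonist replicate 1 was left out).

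In the angiopoietin and Tie system, the receptors and ligands did not share one pattern. Tek (chromosome 4, 94739289 to 94874976, plus strand) had 5.80, 4.22 and 5.30 CPM with agonist and 2.55, 10.4 and 1.42 with vehicle. All agonist libraries lay between the vehicle extremes, which were 7.31-fold apart. The log2 fold change of 0.098 ± 0.69 (-1.51 to 1.71) was 1.35 when vehicle replicate 2 was left out, and -0.20 and -0.32 when vehicle replicate 1 or 3 was. Tie1, the orphan partner receptor, had 5.04, 4.51 and 3.65 CPM against 3.21, 5.43 and 2.86, with the same vehicle order over a narrower range (0.20 ± 0.36, and 0.53 without vehicle replicate 2). Angpt1, the activating Tie2 ligand that mural and stromal cells make, split the agonist group instead, with 19.2 and 17.7 CPM in replicates 1 and 3 but 4 in replicate 2, the lowest of all libraries, and 6.84, 15.2 and 8.48 with vehicle. Its log2 fold change was 0.42 ± 0.59, which was 0.86 with agonist replicate 2 left out and 0.096 with agonist replicate 1 left out. Angpt2 (chromosome 8, 18690263 to 18741562, minus strand), the Tie2 ligand released by activated endothelium, was the only gene of the 4 with a lower agonist mean, at 2.57, 1.71 and 1.22 CPM against 1.37, 3.49 and 1.91. These groups overlapped in CPM, and the log2 fold change of -0.30 ± 0.49 (-1.43 to 0.83) was 0.16 without vehicle replicate 2. In TPM they did not overlap, with 0.82, 0.59 and 0.39 with agonist and 0.96, 0.96 and 0.93 with vehicle. The effective length of Angpt2 differed 2.03-fold between libraries, from 1628 in vehicle replicate 1 to 3297 in agonist replicate 1, so its separation depends on the unit.

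**Figure D3:**
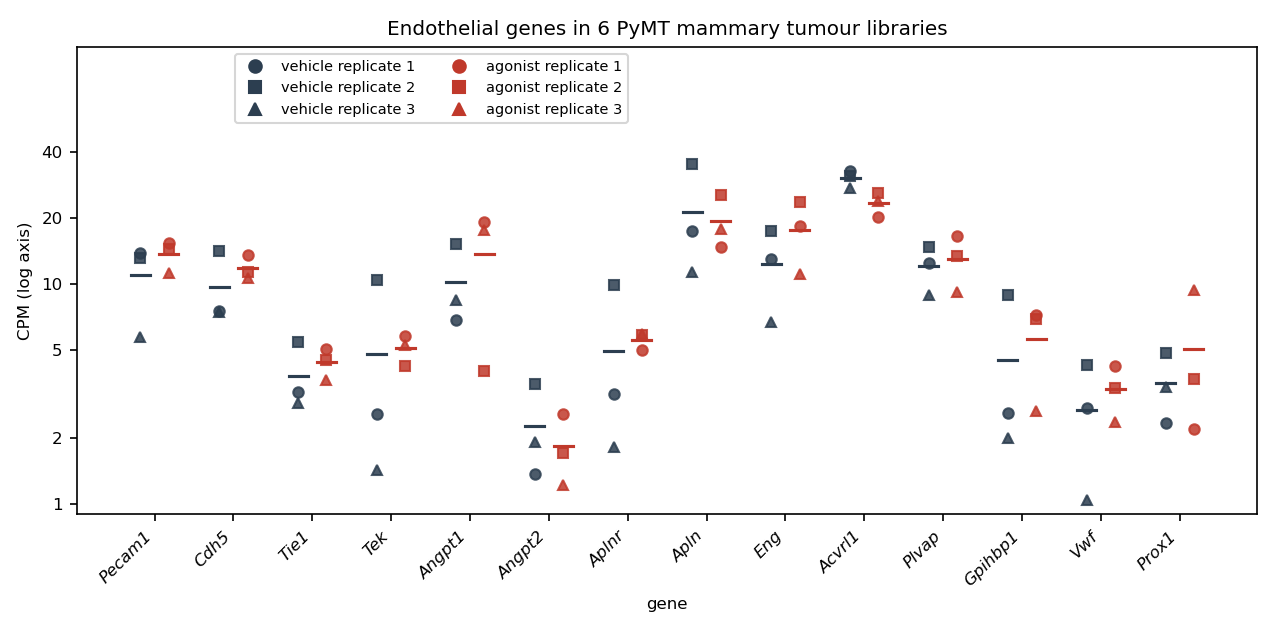
CPM (y axis, log scale) of 14 members (x axis) in each library; dark symbols are vehicle, red symbols agonist, the symbol shape gives the replicate, and short lines are group means. Only for Acvrl1 do the 3 red symbols lie wholly below the dark ones, and for Tek and Aplnr the dark symbols enclose all red ones.

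The apelin pair varied with the same vehicle libraries. Aplnr, the apelin receptor, which is enriched in venous and sprouting endothelium, had 4.99, 5.86 and 5.90 CPM with agonist and 3.17, 9.93 and 1.82 with vehicle. The agonist libraries were nearly level while the vehicle libraries spanned 5.47-fold, and the log2 fold change was 0.17 ± 0.59. Leaving out vehicle replicate 2 gave 1.15, and leaving out vehicle replicate 1 or 3 gave -0.073 and -0.22. Apln, the peptide ligand, a gene known to respond to hypoxia and to mark tip cells, had 14.7, 25.4 and 17.8 CPM against 17.5, 35.1 and 11.4 (-0.14 ± 0.42; 0.42 without vehicle replicate 2 and 0.027 without agonist replicate 1). Vehicle replicate 2 was the highest library for both genes and vehicle replicate 3 the lowest.

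The 2 receptors of the TGF-beta family, which act together in BMP9 and BMP10 signalling in endothelium, went opposite ways. Acvrl1 (chromosome 15, 101128522 to 101145336, plus strand) had 20.1, 26.0 and 23.9 CPM with agonist and 32.8, 30.9 and 27.5 with vehicle, or 23.3 ± 3.03 against 30.4 ± 2.67 (SD, n = 3). Every agonist library was below every vehicle library, although the nearest were 26.0 and 27.5 CPM. By edgeR the log2 fold change was -0.38 ± 0.16 (95% interval -0.76 to -0.0040), with an unadjusted p of 0.0482 and an adjusted p of 0.99. The value stayed between -0.47 and -0.28 with each library left out. Acvrl1 was also set apart by its steadiness within vehicle, where vehicle replicate 2 was 1.12 times vehicle replicate 3. Which cells of the tumour pieces carried the Acvrl1 transcript was not tested. Eng, which encodes the co-receptor endoglin, had 18.4, 23.6 and 11.1 CPM against 13.0, 17.4 and 6.69. Its groups overlapped, with the lowest value of each group in replicate 3. Eng shares 61 exon bases with Fpgs on the other strand, which had a mean of 1919.2 counts against 601 for Eng, so its counts are uncertain. The log2 fold change was 0.52 ± 0.40 (-0.41 to 1.45; edgeR unadjusted p = 0.232), with 0.23 and 0.84 without vehicle replicate 3 or 2, and 0.26 when agonist replicate 2 was left out. The difference between the 2 genes' fold changes was not tested.

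All 6 transcription factors had positive log2 fold changes, from 0.059 to 0.54, and 0 passed the test. Of the SOX factors, Sox17, an arterial factor, had 2.41, 1.32 and 1.38 CPM against 0.661, 2.16 and 0.696 (0.54 ± 0.58), and Sox18 had 4.93, 3.83 and 3.44 against 2.07, 4.15 and 2.49 (0.49 ± 0.38). In both, vehicle replicates 1 and 3 were below all agonist libraries and vehicle replicate 2 lay among them. Sox17 was at 1.32 without vehicle replicate 2 and 0.22 without agonist replicate 1, and Sox18 at 0.83 without vehicle replicate 2 and 0.29 without vehicle replicate 1. Sox7 was high in 1 library of each group, with 4.22 CPM in agonist replicate 2 and 4.77 in vehicle replicate 2, and between 0.752 and 1.65 in the other 4. Its log2 fold change of 0.11 ± 0.73 was -0.50 without agonist replicate 2, -0.31 and -0.12 without vehicle replicates 1 and 3, and 1.19 without vehicle replicate 2. Erg had 2.22, 2.86 and 2.72 CPM against 1.46, 2.82 and 1.44 (0.45 ± 0.41), with 0.84 without vehicle replicate 2 and 0.29 without vehicle replicate 1 or 3. Epas1, which encodes the hypoxia-inducible factor HIF-2 alpha and is expressed well beyond endothelium, had its highest level in vehicle replicate 3 (57.2 CPM) and its lowest in vehicle replicate 1 (21.5), with 33.1, 51.7 and 36.2 with agonist (0.059 ± 0.36; -0.23 and 0.46 without vehicle replicate 1 or 3, and -0.16 when agonist replicate 2 was left out).

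Prox1 (chromosome 1, 190118035 to 190170714, minus strand), the master factor of lymphatic endothelium, had 2.19, 3.69 and 9.38 CPM with agonist and 2.33, 4.85 and 3.41 with vehicle. Agonist replicate 3 alone was high, and agonist replicate 1 was the lowest library. The log2 fold change was 0.53 ± 0.57 with all libraries and -0.26 without agonist replicate 3. In agonist replicate 3 the score of the 8 myoepithelial and smooth muscle genes was also the highest, 2.03 against -1.60 to 0.23 in the other libraries; its part in the Prox1 level was not tested.

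The signalling and transport genes had log2 fold changes from 0.031 to 0.42. Plvap, the diaphragm protein of fenestrated and leaky vessels, had 16.5, 13.4 and 9.19 CPM against 12.5, 14.7 and 8.93 (0.11 ± 0.29), with -0.092 without agonist replicate 1 and -0.058 without vehicle replicate 3. Gpihbp1, which carries lipoprotein lipase to the capillary lumen, had 7.26, 6.93 and 2.65 CPM against 2.58, 8.95 and 1.99 (0.32 ± 0.65), with 1.29 without vehicle replicate 2 and -0.022 without vehicle replicate 3. Gpihbp1 was low in vehicle replicates 1 and 3 and agonist replicate 3. The summed fat cell markers were 263, 46.0 and 115 TPM in those libraries and 473 to 1100 TPM in the other 3; their part in the Gpihbp1 level was not tested. S1pr1, the sphingosine-1-phosphate receptor, which lymphocytes also carry, had 8.10, 6.15 and 4.39 CPM against 4.81, 8.63 and 2.86 (0.19 ± 0.45; -0.10 without vehicle replicate 3 and -0.038 without agonist replicate 1). Cav1 had 56.6, 32.3 and 39.3 CPM against 23.5, 60.4 and 12.2 (0.42 ± 0.57; 1.25 without vehicle replicate 2 and 0.038 without vehicle replicate 3). Nos3 had 2.09, 1.98 and 1.58 CPM against 1.91, 2.24 and 1.37, and Rasip1, needed for vessel lumen formation, had 2.74, 3.20 and 2.12 against 3.28, 2.69 and 1.57. Their log2 fold changes were 0.031 ± 0.37 and 0.096 ± 0.40, and -0.14 and -0.15 without vehicle replicate 3. Without agonist replicate 2 they were -0.0084 and -0.050, and Nos3 was at -0.049 without agonist replicate 1. Both genes share annotated exon bases with genes on the other strand (Atg9b for Nos3 and A030001D20Rik for Rasip1), so without a stated strand setting their counts are uncertain.

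Of the secreted proteins, Vwf, which encodes von Willebrand factor, had 4.23, 3.37 and 2.36 CPM against 2.74, 4.26 and 1.04 (0.31 ± 0.53), with -0.068 without vehicle replicate 3. Platelets carry the protein too. The score of the platelet and megakaryocyte list was 0.85, -0.21 and -0.11 with agonist and 0.40, 0.30 and -1.24 with vehicle, lowest in the same library as Vwf but highest in agonist replicate 1; its part in the Vwf level was not tested. Egfl7, the host gene of miR-126, had 10.8, 10.9 and 6.11 CPM against 7.5, 16.7 and 3.78. Here the group means were almost equal, 9.25 ± 2.72 and 9.32 ± 6.65 CPM (SD, n = 3), and the log2 fold change of -0.011 ± 0.53 was -0.38 without vehicle replicate 3 and 0.71 without vehicle replicate 2. Egfl7 shares 64 exon bases with Agpat2 on the other strand, which had a mean of 1088.7 counts against 367.8 for Egfl7.

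Endothelial genes outside the members were also mostly positive, with the same dependence on single libraries. Of 20 further pan-endothelial genes, 17 had positive log2 fold changes (median 0.21, 0 called by edgeR), and 9 of 20 without vehicle replicate 3 (median -0.029) and 19 of 20 without vehicle replicate 2 (0.68). The VEGF receptors Kdr and Flt1 were at 0.36 ± 0.36 and 0.19 ± 0.36. Kdr had 10.4, 8.35 and 5.51 CPM with agonist and 5.15, 8.71 and 5.07 with vehicle. Flt1 had 7.83, 6.61 and 3.94 against 4.49, 4.69 and 6.99, with vehicle replicate 3 the highest vehicle library. Ushbp1 (0.56 ± 0.34), Adgrf5 (0.51 ± 0.33) and Cyyr1 (0.75 ± 0.58) had the smallest unadjusted p of the list. One list gene, Afap1l1, was far above the others, at 24.8 to 162 CPM, with 112, 112 and 24.8 with agonist and 162, 46.1 and 119 with vehicle, with vehicle replicate 2 the lowest of its group. With the mean level of these 20 genes as a covariate, 18 of the 35 members had a positive log2 fold change and the median was 0.0049. Their score ran with the members across libraries, at 0.37, 0.23 and -0.16 with agonist and -0.27, 0.44 and -0.61 with vehicle. A small median therefore largely follows from the covariate itself.

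Genes of vessel subtypes went different ways, with 0 called on each list. Capillary genes were positive in 8 of 10 cases (median 0.34), but in 5 of 10 without vehicle replicate 3 (-0.022) or agonist replicate 1 (0.0060). Btnl9 (0.71 ± 0.44), Rgcc (0.40 ± 0.38) and Tcf15 (-0.57 ± 0.59) had its smallest unadjusted p. Arterial genes were positive in 4 of 8 cases tested (median -0.0099), with the Notch target Hey1 at -0.55 ± 0.22, the Notch ligand Dll4 at -0.52 ± 0.40 (0.049 without vehicle replicate 3) and Jag1 at 0.79 ± 0.40. Jag1 had 10.4, 7 and 19.6 CPM with agonist and 6.7, 8.97 and 5.79 with vehicle. Its groups overlapped, and agonist replicate 3 was the highest library. Hey1 had 224 to 249 CPM with agonist and 397, 240 and 404 with vehicle, levels far above those of the vessel genes. Venous and leukocyte adhesion genes were positive in 4 of 7 cases tested (median 0.13; 2 of 7 without vehicle replicate 3 or agonist replicate 1, medians -0.32 and -0.29). The venous receptor Ephb4 was at -0.35 ± 0.16 and Vcam1 at 0.44 ± 0.29. Lrg1, a secreted glycoprotein that acts on endothelial TGF-beta signalling, was at -0.53 ± 0.16. It had 178, 170 and 152 CPM against 214, 282 and 225, groups that did not overlap. The levels of Lrg1 and of Ephb4 (81.3 to 121 CPM) were also far above those of Pecam1 and Cdh5, so they need not be endothelial alone. Genes of tip cells and sprouting were positive in 5 of 12 cases (median -0.019), with Pgf, the placental growth factor, at -0.93 ± 0.43, Adm, adrenomedullin, at -1.004 ± 0.48 and Mcam at 0.20 ± 0.15.

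Lymphatic genes were positive in 6 of 6 cases tested (median 0.75; 5 of 7 without vehicle replicate 3, median 0.71, and 5 of 6 without vehicle replicate 2, median 1.51), and 0 were called. Without agonist replicate 1 the median was 0.46 (6 of 6), with a filter of at least 1 CPM in 3 libraries 0.31 (4 of 4), and with no filter 1.17 (7 of 7). By limma-voom it was 1.28 (5 of 6). The list holds low counts. Reln, an extracellular protein of lymphatic vessels, had 0.650, 0.537 and 1.58 CPM with agonist and 0.160, 0.373 and 0.398 with vehicle, groups that did not overlap (1.57 ± 0.62; edgeR unadjusted p = 0.0351, adjusted p = 0.99; 0.93 without agonist replicate 3). In TPM the Reln groups overlapped, with 0.39, 0.21 and 0.42 with agonist and 0.05, 0.07 and 0.34 with vehicle. Its separation therefore depends on the unit. Mmrn1 was at 1.16 ± 0.62 and the chemokine gene Ccl21a at 1.26 ± 0.89. The defining receptor Lyve1 followed the vehicle libraries like the members, with 10.4, 8.35 and 6.40 CPM against 1.66, 17.6 and 1.79 (0.26 ± 0.93; 2.28 when vehicle replicate 2 was left out, and -0.21 and -0.18 when replicate 1 or 3 was), and Flt4, the receptor for VEGF-C, was at 0.0054 ± 0.49. Prox1 did not share the order of Lyve1, being lowest in agonist replicate 1.

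Mural cell genes, which mark the pericytes that wrap vessels, were positive in 8 of 12 cases (median 0.15; 3 of 12 without agonist replicate 1, median -0.10; 4 of 12 without vehicle replicate 3, median -0.065). Rgs5, a pericyte marker, had 60.7, 39.5 and 38.7 CPM against 28.2, 66.1 and 29.1, with vehicle replicate 2 the highest library and the other vehicle libraries the lowest. Notch3, the Notch receptor of mural cells, which epithelial tumour cells can also express, had 44.4, 41.3 and 46.0 CPM against 80.0, 50.7 and 96.5. In CPM every agonist library was below every vehicle library, with a log2 fold change of -0.79 ± 0.23 (edgeR unadjusted p = 0.00934, adjusted p = 0.99). In TPM the Notch3 groups overlapped, with 6.86, 7.93 and 7.8 with agonist and 17.69, 6.93 and 18.14 with vehicle. Abcc9 was at 0.43 ± 0.33 and Ndufa4l2 at 0.76 ± 0.62.

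Markers of fibroblasts, macrophages and fat cells moved with the endothelial level across the vehicle libraries. Those of mural cells, lymphatic endothelium, myoepithelium and smooth muscle, and erythrocytes had the same vehicle order. Markers of luminal epithelium, lymphocytes and platelets had a different one. The score of a list is the average, over its genes, of log2 CPM minus the 6-library mean of that gene. For the 35 members it was 0.32, 0.18 and -0.048 with agonist and -0.39, 0.58 and -0.63 with vehicle. Fibroblast scores were 0.71, 0.040 and 0.41 against -0.44, 1.27 and -1.99, macrophage scores 0.23, 0.29 and 0.13 against -0.25, 0.95 and -1.34, and fat cell scores 1.34, 0.53 and -1.34 against -0.32, 2.11 and -2.33. Vehicle replicate 2 was highest and vehicle replicate 3 lowest on all 4 of these lists, and also on those of mural cells and other pan-endothelial genes. Luminal epithelial scores stayed between -0.14 and 0.34. The highest score lay in agonist replicate 3 for myoepithelium and smooth muscle (2.03) and for lymphocytes (0.76). It lay in agonist replicate 1 for platelets and megakaryocytes (0.85) and for erythrocytes (0.97). Summed fibroblast markers ran from 1070 to 1510 TPM with agonist and from 187 to 1830 TPM with vehicle, and none of the 10 was at 0. With the fibroblast score as a covariate, an alternative added after seeing the data, 22 of the 35 members had a positive log2 fold change, the median was 0.047 and 0 were called.

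**Figure D4:**
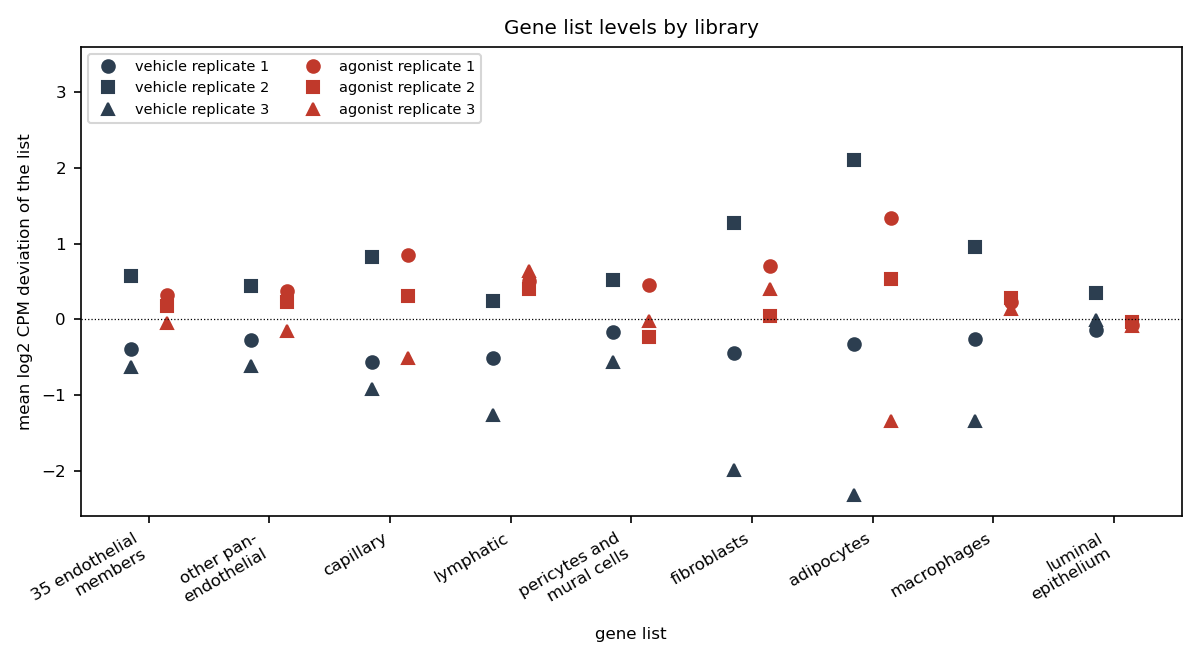
Mean log2 CPM deviation (y axis) of 9 gene lists (x axis) in each library; dark symbols are vehicle, red symbols agonist, and the shape gives the replicate. Vehicle replicates 2 (squares) and 3 (triangles) bracket the agonist libraries for the members, other pan-endothelial genes, mural cells, fibroblasts, macrophages and fat cells. The luminal epithelial list is narrow.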

How the data were processed

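Tumour RNA was sequenced in 3 agonist and 3 vehicle libraries, and the authors deposited 1 RSEM gene table per library. Per the file headers it holds expected counts, that is, estimated read counts shared among matching transcripts, and TPM, which the authors' RSEM run derived from them. The deposited FPKM were not used. Per the submitters' processing notes reads were handled with cutadapt 3.5 and FastQC 0.11.9, STAR 2.7.9a and RSEM 1.3.1 were used with GRCm38, and R 4.1 with DESeq2 1.36.0 is also listed. For the annotation release and strand setting nothing is given in the sources used here. Between 10.1% and 10.5% of the deposited expected counts were not whole, and all were rounded.

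The test was edgeR 4.0.16 (R 4.3.3) with TMM, filterByExpr (minimum count 10, minimum total 15), robust dispersions and a quasi-likelihood F test between the groups, which left 17396 genes. Benjamini-Hochberg adjusted p-values over them were called under 0.05. SE is the log2 fold change over the square root of F, and intervals are 95%. A floor of 3 counts is 0.0684 to 0.0813 CPM, for counting error only, as reads carry no molecular identifiers. Alternatives were other scalings and filters, a block for the replicate number, leaving out each library, DESeq2 1.42.0, limma 3.58.1 (voom with quality weights) and 2 covariates. Scripts were tested on simulated data. Members and lists were chosen with earlier results of these data known. The naming rule took 13 members by symbol, the 8 with the smallest unadjusted p, and the 3 smallest p of each vessel list, with Kdr and Flt1. Values are given for every member, and for genes of other lists where a result turns on them. The lists for fibroblasts, fat cells, macrophages, luminal epithelium, and myoepithelium and smooth muscle are given by their scores or summed levels. Those for lymphocytes, platelets and erythrocytes were positive in 3 of 5, 3 of 5 and 2 of 5 cases, with 0 called.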

Additional observations from a re-analysis of the deposited data

How the results depend on the processing

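No setting called a member. By edgeR 0 genes were called under every scaling, filter, covariate and left-out library, limma-voom called 0, and DESeq2's Wald test called 4. With 1 library left out in turn, the members' median log2 fold change ran from 0.020 (without vehicle replicate 3) to 0.73 (without vehicle replicate 2), with 0 to 0 genes and members called. Over all settings it was lowest, at 0.0049, with the pan-endothelial covariate, whose genes vary with the members. Genes at an unadjusted p under 0.05 went from 538 to 2442 without vehicle replicate 2, 315 without agonist replicate 3, 847 with no filter and 1210 by limma-voom; the cause was not tested.

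Replicate numbers are shared between groups, and deviations of same-numbered libraries correlated at 0.172, 0.038 and 0.063. Agonist replicates 1 and 3 correlated best with the vehicle library of their own number, and agonist replicate 2 with vehicle replicate 3 (0.055). With 3 libraries a group, these values cannot show whether same-numbered libraries share more than a number. With the replicate block 0 genes were called, and 32 of 35 members were positive with a median of 0.32. The median of the lymphatic genes was 1.19 (6 of 6 positive) with the block.

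The direction of 13 members held under all 15 alternatives: Acvrl1, Angpt1, Cav1, Cd93, Cdh5, Emcn, Eng, Erg, Pecam1, Ptprb, Robo4, Sox17 and Sox18. Reversed log2 fold changes, none of them called, and with the cause not tested, were as follows. With upper-quartile scaling Egfl7 was at 0.032, and with no filter at 0.0004. With the replicate block Egfl7 was at 0.20, Cd34 0.37 and Podxl 0.010. By limma-voom Egfl7 was at 0.18, Cd34 0.65, Podxl 0.14, Apln 0.099 and Plvap -0.016. With the pan-endothelial covariate Tie1 was at -0.024, Vwf -0.0525, Cldn5 -0.028, Plvap -0.14, Sox7 -0.15, Icam2 -0.14, Gpihbp1 -0.16, Mmrn2 -0.0995, Rasip1 -0.078, S1pr1 -0.15 and Nos3 -0.15. With the fibroblast covariate Tek was at -0.0975, Plvap -0.037, Icam2 -0.0945, Aplnr -0.004, Rasip1 -0.024, S1pr1 -0.048 and Nos3 -0.10. With 1 library left out in turn the ranges were Angpt2 -0.62 to 0.16, Apln -0.44 to 0.42, Aplnr -0.22 to 1.15, Cd34 -0.52 to 1.06, Cldn5 -0.22 to 0.76, Clec14a -0.021 to 1.07, Egfl7 -0.38 to 0.71, Epas1 -0.23 to 0.46, Esam -0.015 to 0.58, Gpihbp1 -0.022 to 1.29, Icam2 -0.11 to 0.79, Mmrn2 -0.040 to 0.48, Nos3 -0.14 to 0.19, Plvap -0.092 to 0.31, Podxl -0.46 to 0.15, Prox1 -0.26 to 0.89, Rasip1 -0.15 to 0.34, S1pr1 -0.10 to 0.69, Sox7 -0.50 to 1.19, Tek -0.32 to 1.35 and Vwf -0.068 to 0.80.

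With 3 libraries a group the 95% interval of Cdh5 spans -0.43 to 0.996 and that of Tek -1.51 to 1.71, so differences within them could not be resolved. Sox17, with 28 counts in its lowest library, is the least deeply counted member.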
